A study of Homo sapiens with 12 samples.

Results

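The mRNAs of the machinery that loads and unloads the replication clamp PCNA were followed in HEK293T cells with and without knockdown of PRRC2B, in total RNA and in polysome-associated RNA. The genes were chosen by name for their function, with earlier results of these data known. They are the clamp loader subunits RFC1, RFC2, RFC3, RFC4 and RFC5, the alternative loader subunits CHTF18 and DSCC1, the unloader ATAD5 and the clamp PCNA. These 9 genes are among 59385 gene names of the count table, and all 9 were among the 18166 genes with enough counts to be tested.

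HEK293T is a human embryonic kidney line transformed with adenoviral DNA and SV40 large T antigen. Both lines carried a doxycycline (Dox)-inducible short hairpin RNA, a non-silencing one in shCtrl cells and one against PRRC2B, an RNA-binding protein that acts in translation, in shPRRC2B cells. Both were grown with Dox, and cells were collected 36 h after induction. For each line, total RNA and RNA of the pooled polysome fractions of a sucrose gradient were enriched for polyadenylated RNA and sequenced. The polysome fractions carry mRNAs loaded with several ribosomes. Each kind of RNA had 3 biological replicates per line, giving 4 groups and 12 libraries. Each line was a single clone, so the effect of the shRNA and the difference between 2 clones cannot be told apart.

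PCNA is a ring that encircles DNA and tethers the replicative polymerases to it. The ring is opened and placed on DNA by the RFC complex, in which the large subunit RFC1 sits on the 4 small ATPase subunits RFC2, RFC3, RFC4 and RFC5. The small subunits are shared with other loaders that replace RFC1: CHTF18 forms one together with DSCC1 and CHTF8, and ATAD5 forms the complex that takes PCNA off the DNA behind the fork. Most of these genes are transcribed in proliferating cells, and their products are needed at every S phase.

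ATAD5 and PCNA are the members with a crosslink site of full-length PRRC2B in the PAR-CLIP site list published with these libraries. PAR-CLIP marks the RNA that a protein touches in living cells by ultraviolet crosslinking. The site lies in different parts of the 2 mRNAs, and a stretch of each is shown because the transcripts differ in what they did in polysomes. The letters come from the GRCh38 genome, read on the strand of the gene from 5′ to 3′.
ATAD5, 3′ UTR, last exon (exon 23 of 23), plus strand, chr17:30895282-30895311: gttggtatacaaTCTCCCactgctaaattt
PCNA, end of the coding sequence, last exon (exon 6 of 6), minus strand, chr20:5115284-5115313: tcccaagatcgaggatGAAGAAGGAtctta
The capitals mark the longest run of pyrimidines in the ATAD5 site (6 nt) and the longest run of purines in the PCNA site (9 nt). The full ATAD5 site (chr17:30895262-30895361) held 52 pyrimidines in 100 nt, all in the 3′ UTR. Of the PCNA site (chr20:5115284-5115383), 79 nt were exonic, all of them coding, and 32 of these were pyrimidines. P2, a fragment of PRRC2B that binds RNA, had an overlapping site in each of these mRNAs. For ATAD5 the paper also reports binding to endogenous PRRC2B by immunoprecipitation. It further reports a shift to lighter gradient fractions by RT-qPCR at earlier times after induction.

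Library totals ran from 9855734 to 20837542 counts. PRRC2B itself had 258 to 313 CPM (counts scaled by the effective library size) in shCtrl total RNA and 97.9 to 102.5 CPM in shPRRC2B total RNA, a log2 change of -1.49 (SE 0.17; the quasi-likelihood test of edgeR gave an adjusted p of 4.25e-06 by the method of Benjamini and Hochberg). All CPM here were normalised by TMM, which scales each library by the bulk of its genes. Replicates differed by more than counting noise, with a chi-square per gene of 3.24 to 8.63 between total RNA replicates and 13.9 to 75.4 between polysome replicates. Replicate 1 stood farthest from the other replicates in both polysome groups, so results that rest on it are given with and without it. All 5 HEK293T markers (VIM, KRT8, KRT18, PAX2, LIN28B) had counts in every group, and the blood, liver and endothelial markers PTPRC, ALB and PECAM1 reached at most 5 counts. The muscle gene DES reached 47 counts, and the summed level of these 4 markers was 0.189 to 0.651 CPM in shCtrl and 1.59 to 3.82 CPM in shPRRC2B libraries. The summed CPM of 5 G1/S genes was 241 to 248 in shCtrl and 263 to 280 in shPRRC2B total RNA, and that of 5 G2/M genes was 985 to 1060 and 1150 to 1230. The genes of each list did not move together. The log2 change lay above 0 for 2 G1/S genes and 3 G2/M genes, and below 0 for 3 and 2. Mean CDC6 went from 69.6 to 101.6 CPM and MKI67 from 283 to 484 CPM, whereas TOP2A went from 461.5 to 391.7 CPM. In polysomes, the G1/S sum was 366 to 430 in shCtrl and 457 to 489 in shPRRC2B, and the G2/M sum was 457 to 481 and 299 to 375. There the log2 change lay above 0 for 3 G1/S genes and below for 2, with mean E2F1 going from 134.8 to 203.6 CPM. All 5 G2/M genes lay below 0 in polysomes. The part of these shifts in the results below was not tested.

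The 9 mRNAs spanned a wide range of levels, with the clamp on top and its unloader at the bottom. Levels of different genes were compared as CPM per kilobase of transcript. In shCtrl total RNA, PCNA stood at 143 ± 6.52 CPM per kb (SD, n = 3), and ATAD5 stood at 9.18 ± 0.610 (SD, n = 3). Between them came RFC5 at 41.9, CHTF18 at 38.05, RFC2 at 36.5, RFC4 at 29.9, RFC3 at 28.05, RFC1 at 20.2 and DSCC1 at 14.9 CPM per kb. RFC5, CHTF18 and RFC2 had overlapping values, each with the next, as did RFC4 and RFC3, and the other neighbours in this order did not overlap.

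In shPRRC2B total RNA, PCNA was again highest, at 151 ± 4.30 CPM per kb (SD, n = 3), and ATAD5 lowest, at 7.46 ± 0.567 (SD, n = 3). RFC2 came second, at 46.5 CPM per kb, and did not overlap RFC5, the third, at 33.7. RFC5 overlapped CHTF18 at 32.7, CHTF18 overlapped RFC4 at 29.6, and RFC1 at 27.7 overlapped RFC3 at 25.7, while RFC4 and RFC1 did not overlap.

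In polysomes the order was different. In shCtrl polysome RNA, PCNA stood at 232 ± 37.1 CPM per kb (SD, n = 3), followed by RFC2 at 121, RFC4 at 69.3, RFC5 at 59.5, DSCC1 at 35.3, RFC3 at 30.1, CHTF18 at 8.60, RFC1 at 5.66 and ATAD5 at 1.76. Neighbouring values overlapped between RFC4 and RFC5 and between DSCC1 and RFC3. In shPRRC2B polysome RNA, RFC4 at 81.1 CPM per kb lay well above RFC5 at 29.1, with DSCC1 at 30.8 between them, and DSCC1 and RFC5 were the neighbours that overlapped. RFC3 stood at 16.5, CHTF18 at 6.15, RFC1 at 3.63 and ATAD5 at 0.753 CPM per kb, each below the lowest library of the one before.

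**Figure D1:**
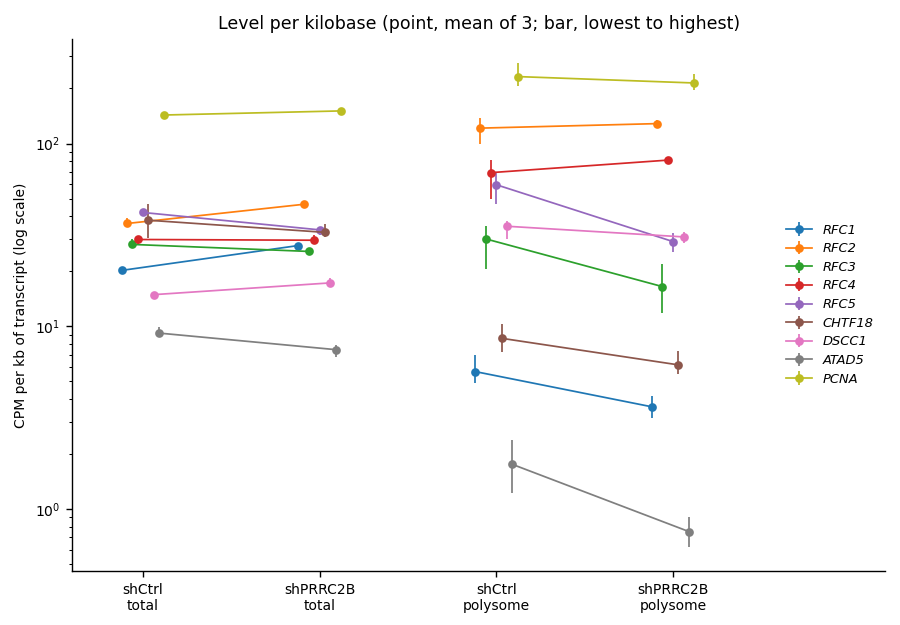
Level of each mRNA in CPM per kb of transcript (y axis, log scale) in the 4 groups (x axis); points are means of 3 libraries, bars run from the lowest to the highest library, and lines join the 2 lines within a fraction. PCNA is at the top of every group (143 CPM per kb in shCtrl total RNA) and ATAD5 at the bottom (0.753 in shPRRC2B polysome RNA).

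ATAD5 (chr17:30831966-30895869, plus strand, GRCh38, transcript of 6873 nt) is the large subunit of the PCNA unloader. In total RNA it had 61.1, 60.3 and 67.9 CPM in shCtrl and 46.9, 52.4 and 54.4 CPM in shPRRC2B cells. In polysome RNA it had 11.3, 16.5 and 8.43 CPM in shCtrl and 6.19, 5.06 and 4.28 CPM in shPRRC2B cells. The shPRRC2B libraries were all below the shCtrl libraries in both fractions, and the gap was larger in polysomes. The log2 change was -0.30 in total RNA (SE 0.17, 95% interval -0.66 to 0.06, adjusted p = 0.19, edgeR's quasi-likelihood test), which was not called. In polysome RNA ATAD5 fell by 1.22 on the log2 scale (SE 0.22, adjusted p = 0.000226, edgeR), which is 2.32-fold. Its polysome counts were the lowest of the 9 genes, 76 to 152 per library in shCtrl and 45 to 72 in shPRRC2B cells.

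Translation efficiency (TE) is the polysome level of an mRNA over its total level, and the TE change is the polysome change minus the total RNA change, tested as an interaction over all 12 libraries. Calls required an adjusted p below 0.05 together with a log2 change beyond 0.5 in either direction. The TE of ATAD5 fell by 0.92 on the log2 scale (SE 0.28, 95% interval -1.50 to -0.33, adjusted p = 0.0205, edgeR). Its polysome-to-total ratio was 0.185, 0.274 and 0.124 in shCtrl and 0.132, 0.0966 and 0.0787 in shPRRC2B cells for replicates 1, 2 and 3. The ratios of the lines overlapped at the lowest shCtrl and the highest shPRRC2B replicate. By edgeR, the call was lost when any of 4 libraries was left out. The adjusted p was 0.0554 without polysome replicate 2 of shCtrl, 0.0538 without polysome replicate 3 of shPRRC2B, and 0.05 and 0.0518 without replicates 1 and 2 of the shCtrl total RNA.

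RFC1 (chr4:39287456-39366375, minus strand, 4870 nt), the large subunit of the canonical loader, moved in opposite directions in the 2 fractions. In total RNA it had 93.6, 98.9 and 103.1 CPM in shCtrl and 129.9, 137.7 and 136.7 CPM in shPRRC2B cells. Its polysome values were 24.9, 33.8 and 23.96 CPM in shCtrl and 20.2, 17.5 and 15.3 CPM in shPRRC2B cells. The shPRRC2B libraries were all higher in total RNA and all lower in polysomes. The total RNA change, 0.45 on the log2 scale (SE 0.13, adjusted p = 0.0149, edgeR), lay under the fold threshold and was not called. In polysome RNA RFC1 fell by 0.64 (SE 0.15, adjusted p = 0.00216, edgeR), and its TE fell by 1.09 (SE 0.20, 95% interval -1.51 to -0.67, adjusted p = 0.000822). The polysome-to-total ratio was 0.266, 0.341 and 0.232 in shCtrl and 0.156, 0.127 and 0.112 in shPRRC2B cells, with no overlap. RFC1 had the largest TE change of the 9 genes in this fit, although not with the length trend removed, where RFC5 and RFC3 moved more. The RFC1 call held under all 12 alternative settings and with each of the 12 libraries left out, between -1.31 and -0.66.

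The small subunits did not move together. RFC5 (chr12:118013588-118033130, plus strand, 2104 nt) had 90.6, 89.2 and 85.1 CPM in shCtrl total RNA and 72.7, 73.8 and 66.1 CPM in shPRRC2B total RNA. In polysomes it had 97.7, 147.9 and 130.0 CPM in shCtrl and 68.4, 61.7 and 53.5 CPM in shPRRC2B cells. All shPRRC2B libraries lay below all shCtrl libraries in both fractions. The total RNA change was -0.32 (SE 0.14, adjusted p = 0.0935, edgeR), RFC5 fell by 1.03 in polysomes (SE 0.15, adjusted p = 2.47e-05), and its TE fell by 0.72 (SE 0.20, 95% interval -1.14 to -0.29, adjusted p = 0.0143). The polysome-to-total ratio fell from 1.08, 1.66 and 1.53 to 0.94, 0.836 and 0.808, with no overlap, and the TE call held under all 12 alternative settings and all 12 leave-outs.

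RFC3 (chr13:33818069-33966558, plus strand, 2306 nt) had 62.2, 62.8 and 69.0 CPM in shCtrl and 56.4, 61.9 and 59.4 CPM in shPRRC2B total RNA. Its polysome values were 47.3, 81.6 and 79.2 CPM in shCtrl and 50.3, 36.6 and 27.2 CPM in shPRRC2B cells. The polysome groups overlapped only through replicate 1, the lowest of shCtrl and the highest of shPRRC2B. RFC3 fell by 0.86 in polysomes (SE 0.20, adjusted p = 0.00236, edgeR), and its total RNA change was -0.13 (SE 0.20, adjusted p = 0.653). Its TE change of -0.74 (SE 0.28, 95% interval -1.33 to -0.14, adjusted p = 0.0617, edgeR) was not called. It was called without shCtrl polysome replicate 1 (-0.97, adjusted p = 0.00382) or without shPRRC2B polysome replicate 1 (-1.04, adjusted p = 0.00593), with every gene of at least 1 count kept (-0.78, adjusted p = 0.00501), and with the culture, line and replicate number together, as a block (-0.74, adjusted p = 0.0435, edgeR).

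RFC2 (chr7:74231499-74254458, minus strand, 1685 nt) had 59.2, 65.8 and 59.6 CPM in shCtrl total RNA and 77.9, 76.0 and 81.2 CPM in shPRRC2B total RNA, with no overlap. In polysomes it had 168, 232 and 214 CPM in shCtrl and 211, 227 and 212 CPM in shPRRC2B cells, which overlapped. The total RNA change of 0.35 (SE 0.12, adjusted p = 0.0388, edgeR) lay under the fold threshold. The polysome change was 0.08 (95% interval -0.18 to 0.34) and the TE change -0.27 (95% interval -0.64 to 0.10, adjusted p = 0.279, edgeR), neither of them called. Without replicate 1 of both polysome groups, an alternative chosen after seeing the data, the TE change was -0.41 (adjusted p = 0.0187, edgeR). That value also lay under the fold threshold.

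RFC4 (chr3:186789880-186807058, minus strand, 1365 nt) had 41.4, 42.6 and 38.2 CPM in shCtrl and 38.8, 39.3 and 43.0 CPM in shPRRC2B total RNA. On polysomes there were 67.9, 110.9 and 105.0 CPM in shCtrl and 108.0, 109.3 and 114.9 CPM in shPRRC2B cells. The lines overlapped in both fractions, and only shCtrl polysome replicate 1 lay apart, below the rest. The TE change of 0.24 (SE 0.21, 95% interval -0.20 to 0.69, adjusted p = 0.424, edgeR) was the only one of the 9 above 0. It was 0.03 without shCtrl polysome replicate 1.

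Neither CHTF18 nor DSCC1, of the alternative loader, was called in any comparison between the lines. CHTF18 (chr16:788046-800737, plus strand, 3092 nt), which takes the place of RFC1, had 144, 116 and 93.5 CPM in shCtrl and 94.9, 95.9 and 112 CPM in shPRRC2B total RNA. On polysomes there were 25.6, 22.5 and 31.7 CPM in shCtrl and 17.0, 22.5 and 17.5 CPM in shPRRC2B cells. The lines overlapped in both fractions, in polysomes by 1 library of each line at 22.5 CPM. The polysome change of -0.48 (SE 0.18, adjusted p = 0.0366, edgeR) lay just under the fold threshold and was called in 5 of 12 leave-outs, and the TE change was -0.26 (95% interval -0.77 to 0.25, adjusted p = 0.454).

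DSCC1 (2198 nt), which binds CHTF18, had 32.8, 32.2 and 33.2 CPM in shCtrl and 40.6, 36.5 and 36.8 CPM in shPRRC2B total RNA, with no overlap. In polysomes it had 66.1, 83.2 and 83.2 CPM in shCtrl and 68.5, 72.0 and 62.8 CPM in shPRRC2B cells, with overlap through shCtrl replicate 1. Its ratio was 2.01, 2.59 and 2.50 in shCtrl and 1.69, 1.97 and 1.71 in shPRRC2B cells, without overlap. The TE change of -0.41 (SE 0.17, 95% interval -0.77 to -0.04, adjusted p = 0.0927, edgeR) was not called, and it was called without shCtrl polysome replicate 1 (-0.53, adjusted p = 0.0116). CHTF8, the remaining subunit of this loader, had only 2 to 47 counts per library and shares 84.6% of its exon sequence with DERPC on the same strand, so its TE change of 0.41 (SE 0.76, adjusted p = 0.737, edgeR) is uncertain.

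PCNA (chr20:5114953-5126626, minus strand, 1276 nt), the clamp itself, had 189, 186 and 173 CPM in shCtrl and 186, 194 and 197 CPM in shPRRC2B total RNA. Polysome RNA held 262, 350 and 277 CPM in shCtrl and 306, 265 and 250 CPM in shPRRC2B cells. The lines overlapped in both fractions, in polysomes only through replicate 1. The log2 change was 0.07 in total RNA (95% interval -0.20 to 0.35, adjusted p = 0.688), -0.12 in polysomes (95% interval -0.39 to 0.16, adjusted p = 0.494) and -0.19 in TE (95% interval -0.58 to 0.19, adjusted p = 0.471), all by edgeR. Without replicate 1 of both polysome groups, an alternative chosen after seeing the data, the polysome change was -0.38 (adjusted p = 0.01, edgeR). The TE change was then -0.40 (adjusted p = 0.0353, edgeR), and both lay under the fold threshold. At 2507 to 5438 counts per library in total RNA and 2500 to 3555 in polysomes, PCNA was the most deeply counted of the 9 genes.

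**Figure D2:**
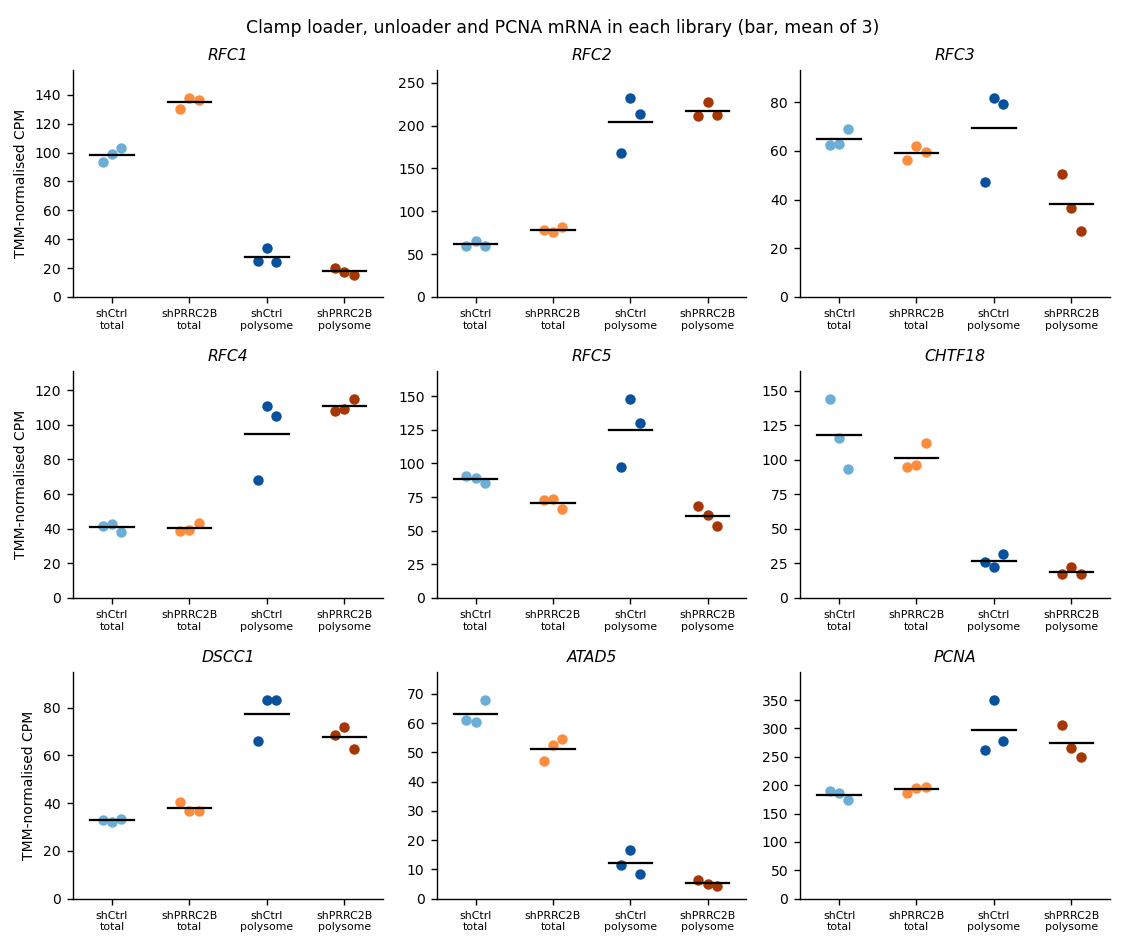
TMM-normalised CPM (y axes, from 0) of the 9 mRNAs in each of the 12 libraries (points, by line and fraction on the x axes), with the mean of 3 replicates as a bar. RFC5 polysome values lie at 97.7 to 147.9 CPM in shCtrl and 53.5 to 68.4 CPM in shPRRC2B cells, while those of PCNA overlap between the lines.

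Over the 9 genes, none was called in total RNA. By edgeR, 3 of the 9 had an unadjusted p under 0.05 there (RFC1 and RFC2 above 0, RFC5 below), and DESeq2 and limma called 0 as well. Of all genes tested, 14.9% were called higher and 14.1% lower in total RNA. The 3 shPRRC2B values all lay above the 3 shCtrl values for RFC1, RFC2 and DSCC1 and all below for ATAD5, RFC3 and RFC5, beside 34.1% and 28.8% of all genes. Because these are bulk samples, fewer cells in a phase that makes an mRNA and less of that mRNA per cell cannot be told apart.

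In polysome RNA, 4 of the 9 genes fell (ATAD5, RFC5, RFC3 and RFC1) and 0 rose, while 21.4% of all genes tested were called lower and 18.4% higher. The 0 higher calls stood at 0 by DESeq2, by limma and at an unadjusted p under 0.05 in edgeR. The 3 shPRRC2B polysome values all lay below those of shCtrl for ATAD5, RFC1 and RFC5, beside 21.5% of all genes. In TE, 3 of the 9 genes fell (RFC1, ATAD5 and RFC5), beside 16.4% of all genes. None rose, beside 10.7% of all genes, and again none did by DESeq2, by limma or at an unadjusted p under 0.05. The median TE change of the 9 genes was -0.41, against -0.03 over all genes tested. The ratios of the lines did not overlap for RFC1, RFC5 and DSCC1, all lower in shPRRC2B cells, as for 21.1% of all genes. Without replicate 1 of both polysome groups, an alternative chosen after seeing the data, 5 of the 9 were called lower in TE, with RFC3 (-1.25, adjusted p = 7.79e-06) and DSCC1 (-0.56, adjusted p = 0.00378, edgeR) added. The 3 kinds of change use the same libraries, so they are not independent of each other. The 9 genes were chosen with earlier results of these data known, and the paper names ATAD5 among the bound mRNAs with lower TE. The counts over the 9 genes are therefore given as a description.

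**Figure D3:**
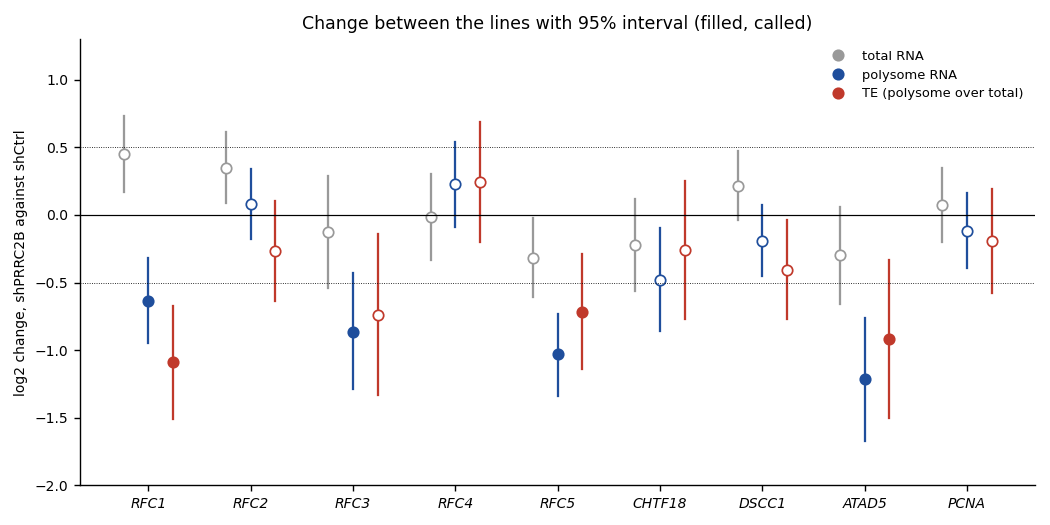
Log2 change from shCtrl to shPRRC2B (y axis) for the 9 genes (x axis) in total RNA, polysome RNA and TE; vertical lines are 95% intervals, filled points were called, and dotted lines mark the fold threshold at 0.5. RFC1 lies at 0.45 in total RNA and at -1.09 in TE, and the intervals of PCNA and RFC4 cross 0 in all 3.

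The balance between subunits can be read within a library, where scaling between libraries cancels out. The pairs below were chosen after their values were seen and are given as a description. The level per kb of RFC5 over that of RFC4 was 1.41 ± 0.0416 in shCtrl and 1.15 ± 0.128 in shPRRC2B total RNA (SD, n = 3 each). In polysomes the same ratio was 0.867 ± 0.0650 in shCtrl and 0.36 ± 0.0548 in shPRRC2B cells, with no overlap (0.803 to 0.933 against 0.302 to 0.411). RFC3 over RFC2 was 0.771 ± 0.0750 and 0.553 ± 0.0367 in total RNA and 0.244 ± 0.0348 and 0.129 ± 0.0417 in polysomes, again apart in both fractions. Among the 4 small subunits, which form the shared base of all these loaders, RFC5 thus lay lower against RFC4, and RFC3 against RFC2, in shPRRC2B cells. RFC1 over RFC4, the large subunit of the canonical loader over a small one, went opposite ways in the 2 fractions, at 0.68 ± 0.0663 and 0.937 ± 0.0460 in total RNA and 0.0841 ± 0.0196 and 0.0449 ± 0.00750 in polysomes, without overlap in either.

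The ratio of the unloader subunit to the canonical large subunit, ATAD5 over RFC1 per kb, was 0.454 ± 0.0192 in shCtrl and 0.269 ± 0.0130 in shPRRC2B total RNA, and 0.306 ± 0.0505 and 0.207 ± 0.00961 in polysomes (SD, n = 3 each). The unloader over the clamp, ATAD5 over PCNA, was 0.0644 ± 0.00730 and 0.0494 ± 0.00236 in total RNA and 0.00747 ± 0.00163 and 0.00350 ± 0.000294 in polysomes, with no overlap between the lines in either. ATAD5 (6873 nt) is longer than PCNA (1276 nt), and RFC1 (4870 nt) is longer than RFC4 (1365 nt). Over all genes, TE fell more for long transcripts, as given below. The part of length in the ratios of these pairs was not tested. CHTF18 over DSCC1 overlapped between the lines, at 2.56 ± 0.560 and 1.90 ± 0.251 in total RNA and 0.246 ± 0.0468 and 0.199 ± 0.0225 in polysomes.

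Within each line, the 9 mRNAs were spread over a wide range of polysome association. In shCtrl cells, the log2 polysome-to-total ratio was -2.38 for ATAD5, -2.15 for CHTF18 and -1.84 for RFC1, and these 3 were called lower in polysomes. It was 1.73 for RFC2, 1.24 for DSCC1, 1.21 for RFC4, 0.70 for PCNA and 0.50 for RFC5, called higher, and 0.10 for RFC3, not called (adjusted p = 0.66, edgeR). The RFC5 value lay on the threshold, and its call held in 3 of 12 alternatives and 6 of 12 leave-outs, in which it ran from 0.36 to 0.64. Of all genes, 32.5% were called higher and 39.8% lower in this comparison. In shPRRC2B cells the ratio was -3.30 for ATAD5, -2.93 for RFC1, -2.41 for CHTF18 and -0.64 for RFC3, called lower, and 1.47 for RFC2, 1.46 for RFC4, 0.84 for DSCC1 and 0.51 for PCNA, called higher. The PCNA call held in 6 of 12 alternatives and 7 of 12 leave-outs, and the value was 0.36 without shPRRC2B polysome replicate 1 and also without replicate 1 of both polysome groups, which left 3 genes called higher. RFC5 stood at -0.21 (adjusted p = 0.178, edgeR), and 36.6% of all genes were called higher and 42.3% lower.

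These ratios are relative to the scaling of the libraries. With library totals or with TMM factors within each fraction, the median of all genes moved by -0.996 to -0.9997 in shCtrl and by -0.944 to -0.939 in shPRRC2B cells, and the ratios of RFC3, RFC5 and PCNA in shCtrl and of DSCC1 and PCNA in shPRRC2B cells then lay below 0. Differences between 2 genes within a library are free of that choice.

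The transcripts associated least with polysomes were also the 3 longest of the 9. Genes with a known transcript length (15762, or 86.8% of those tested) were divided into quintiles by length, and the median log2 ratio in shCtrl cells was 1.85, 0.69, -0.24, -1.003 and -1.66 from the shortest to the longest quintile. The median TE change was 0.44, 0.15, -0.08, -0.34 and -0.67 in the same order. PCNA and RFC4 belong to the shortest quintile, RFC2, RFC3, RFC5 and DSCC1 to the second, CHTF18 to the middle one, RFC1 to the next and ATAD5 to the longest. CHTF18 had the ratio farthest from the median of its quintile, -2.15 against -0.24. In TE, RFC3 at -0.74 and RFC5 at -0.72 were farthest from theirs, at 0.15, whereas ATAD5 at -0.92 lay near its own, at -0.67.

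With the trend on transcript length removed from each library, the TE change of ATAD5 was -0.29 (adjusted p = 0.473, edgeR) and no longer called. RFC1 stood at -0.67 (adjusted p = 0.0195) and RFC5 at -0.83 (adjusted p = 0.00773), both still called, and DSCC1 at -0.50 (adjusted p = 0.0476) was called in addition. RFC3 at -0.81 (adjusted p = 0.0531), PCNA at -0.49 (adjusted p = 0.0681) and RFC2 at -0.47 (adjusted p = 0.0549, edgeR) were not called. In polysome RNA, the change of RFC1 became -0.33 (adjusted p = 0.0736) and its call was lost. That of ATAD5 was -0.76 (adjusted p = 0.00803, edgeR), still called. That of PCNA was -0.37 (adjusted p = 0.0297, edgeR), under the fold threshold. Which part of the ATAD5 TE change goes with its length was not tested further.

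**Figure D4:**
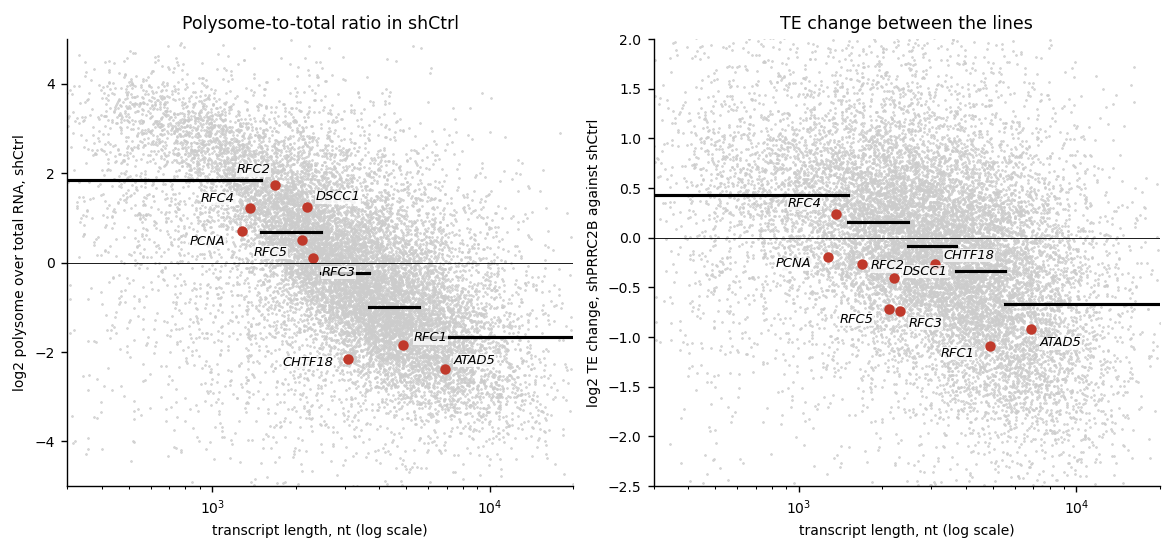
Log2 polysome-to-total ratio in shCtrl cells (left) and log2 TE change between the lines (right) against transcript length in nt (x axes, log scale); grey points are genes tested within the plotted range, black bars are medians of quintiles by length, and red points are the 9 genes. CHTF18 lies at -2.15 on the left, below the bar of its quintile at -0.24, and RFC3 and RFC5 lie at -0.74 and -0.72 on the right, below theirs at 0.15.

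Genes that act with the clamp were taken from 7 lists with 52 genes in all, and all 52 were tested. In TE, 21 of them fell and 3 rose, beside 16.4% and 10.7% of all genes, with a median change of -0.43 against -0.03. In polysome RNA 18 fell and 8 rose, beside 21.4% and 18.4% of all genes, and in total RNA 8 fell and 8 rose, near the shares over all genes of 14.1% and 14.9%. The lists were chosen with earlier results of these data known and are given as a description. The all-gene shares are not matched for transcript length, and the median TE change was -0.67 in the longest quintile and -0.34 in the next. The part of length in the counts of these lists was not tested.

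Fork protection factors and CMG helicase components had 6 of 9 genes lower in TE and 0 higher, with a median of -0.70, beside 16.4% and 10.7% of all genes. CLSPN, the checkpoint adaptor claspin, fell by 2.44 (SE 0.26, adjusted p = 1.77e-05, edgeR), and WDHD1, which links the helicase to polymerase alpha, fell by 1.07 (SE 0.23, adjusted p = 0.00273). The TE of the GINS subunits GINS4 and GINS1 fell by 1.00 (SE 0.21, adjusted p = 0.00214) and 0.79 (SE 0.29, adjusted p = 0.0496). Their polysome changes of -0.38 (adjusted p = 0.0581) and -0.37 (adjusted p = 0.166, edgeR) were not called. GINS4 was called higher in total RNA, by 0.62 (adjusted p = 0.00225, edgeR). CLSPN (8512 nt) and WDHD1 (6019 nt) are in the longest quintile, where the median TE change was -0.67. In total RNA, 4 genes of this list rose and 0 fell, beside 14.9% and 14.1% of all genes. In polysome RNA, 2 of the 9 fell (CLSPN and WDHD1) and 1 rose (GINS2), beside 21.4% and 18.4% of all genes.

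The PCNA ubiquitin cycle had 5 of 8 genes lower in TE and 0 higher, with a median of -0.83, beside 16.4% and 10.7% of all genes. SHPRH and HLTF, ubiquitin ligases that extend chains on PCNA, fell by 1.39 (SE 0.40, adjusted p = 0.0158, edgeR) and 1.36 (SE 0.25, adjusted p = 0.000845). SHPRH had only 28 to 42 polysome counts per library in shCtrl and 7 to 34 in shPRRC2B cells. Its polysome change of -0.74 (adjusted p = 0.0844, edgeR) was not called, and it was called higher in total RNA, by 0.65 (adjusted p = 0.0252, edgeR). DTL, the substrate receptor of a ligase that acts on PCNA-bound proteins, fell by 1.03 (SE 0.22, adjusted p = 0.00227). USP1, which removes ubiquitin from PCNA and is recruited by ATAD5, fell by 0.80 (SE 0.18, adjusted p = 0.00394). The SHPRH transcript (7596 nt) is in the longest quintile, and those of HLTF (5320 nt) and DTL (4409 nt) are in the next, where the median TE changes were -0.67 and -0.34.

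Of 12 replicative polymerase and primase genes, 4 fell in TE and 1 rose, beside 16.4% and 10.7% of all genes. POLA1, the catalytic subunit of polymerase alpha, fell by 1.37 (SE 0.23, adjusted p = 0.000382, edgeR), the primase subunit PRIM2 by 1.17 (SE 0.28, adjusted p = 0.00466) and POLE, the catalytic subunit of the leading-strand polymerase, by 0.97 (SE 0.18, adjusted p = 0.00075). POLE4, a small accessory subunit of the same polymerase, rose by 1.202 (SE 0.23, adjusted p = 0.00127). The POLE transcript has 7823 nt, that of POLA1 5487 nt, that of PRIM2 2303 nt and that of POLE4 1097 nt.

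The other lists held fewer calls, to be read beside the 16.4% lower and 10.7% higher over all genes. In Okazaki fragment processing and RPA, 2 of 9 genes fell in TE, the nuclease-helicase DNA2 by 1.05 (adjusted p = 0.000679, edgeR) and the single-strand binding subunit RPA1 by 0.85 (adjusted p = 0.000709), and RNASEH2C, a subunit of ribonuclease H2, rose by 0.62 (adjusted p = 0.0116). Of 9 PCNA-binding partners, 3 fell: the mismatch repair protein MSH3, which fell by 1.102 (adjusted p = 0.00198), the chromatin assembly subunit CHAF1A, which fell by 0.78 (adjusted p = 0.0276), and the maintenance methyltransferase DNMT1, which fell by 0.69 (adjusted p = 0.0311). The DNA2, RPA1, MSH3 and DNMT1 transcripts (4267 to 5274 nt) are in the quintile next to the longest, with a median TE change of -0.34. CHAF1A (3366 nt) is in the middle quintile, at -0.08, and its polysome change of -0.46 (adjusted p = 0.0514, edgeR) was not called. RAD17, which loads the 9-1-1 checkpoint clamp together with the same small RFC subunits, fell by 1.05 in TE (SE 0.33, adjusted p = 0.0267, edgeR). It was called higher in total RNA, by 0.66 (adjusted p = 0.039, edgeR), with 5.25 to 6.42 CPM in shCtrl and 6.40 to 10.8 CPM in shPRRC2B cells. Its polysome change of -0.39 (adjusted p = 0.19, edgeR) was not called. RAD17 shares 9.14% of its exon sequence with TAF9 and 5.05% with AK6, both on the other strand. RAD9A, a subunit of the 9-1-1 clamp, rose by 0.54 in TE (adjusted p = 0.049, edgeR).

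The genes most like ATAD5 and PCNA over the 12 libraries were found by the root mean square distance of their centred log2 CPM, among 10042 genes. Nearest to ATAD5 were OSBPL3 (distance 0.206), RNF20 and AHCYL1 (both 0.208), GTF3C4 (0.208) and PARP1 (0.209). Their TE changes lay between -1.22 for RNF20 and -0.54 for GTF3C4, and their transcripts have 3938 to 8612 nt. Nearest to PCNA were OSGEP (0.0935), SLBP (0.0971), WDR41 (0.0986), PSMD14 (0.109) and USP16 (0.111), with TE changes from -0.48 for PSMD14 to -0.04 for SLBP. The neighbours of PCNA were closer than those of ATAD5, whose polysome counts were few.

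The TE change of each gene moved little with the count model. Over the 9 genes and 5 comparisons, DESeq2 gave the same sign and the same verdict, called or not called, for all 45 values, and limma on log2(CPM + 1) for 44 of them. The values moved more with the length trend and with replicate 1 of the polysome groups, as the plot of the alternatives shows.

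**Figure D5:**
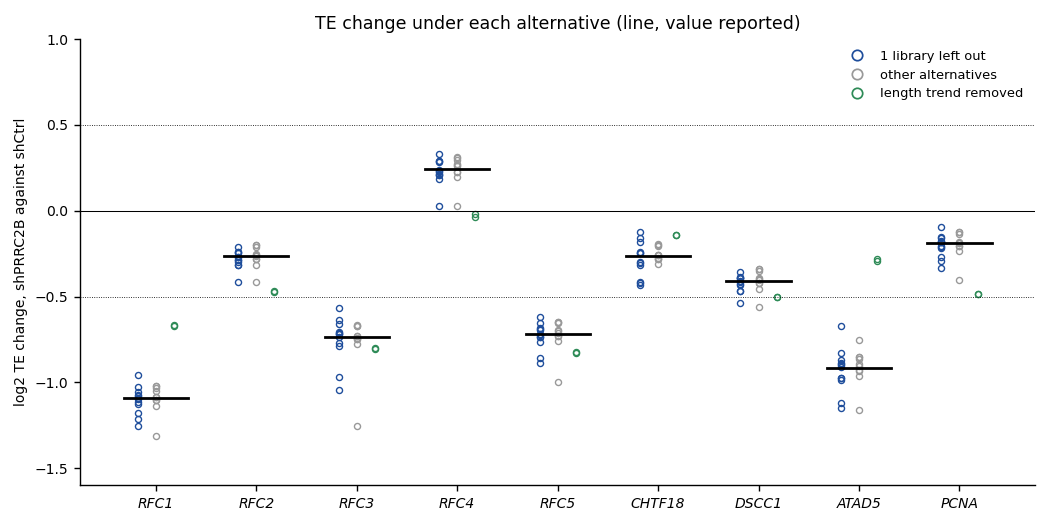
Log2 TE change (y axis) of the 9 genes (x axis) as reported (black line), with each library left out (blue), with the length trend removed (green) and under the other alternatives (grey). RFC1 and RFC5 stay below the threshold at -0.5 under all of them, and ATAD5 rises to -0.29 with the length trend removed.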

How the data were processed

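The deposited values are raw counts: for each gene name, the authors tabulated the read pairs of every library and did not normalise them. Per the labels and the methods, polyadenylated RNA was sequenced in pairs, trimmed with Trimmomatic 0.36, mapped to GRCh38 with HISAT2 (version 2.1.0 in the submitters' processing notes, another version in the methods) and counted with featureCounts (Subread 2.0.1) on GENCODE 38 gene names. The options listed in the methods name neither a strand nor the counting of a read pair for several genes. Antisense genes overlap exons of ATAD5, RFC4, RFC5 and CHTF18, each covering at most 5.72% of the exon sequence. Read pairs in these overlaps may therefore be missing from the counts. The same holds for CHTF8 and RAD17, with the overlaps given above. The table has 0 columns that belong to no library.

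Groups came from the sample labels. Genes were kept by filterByExpr (minimum count 10), normalised by TMM and tested in edgeR 4.0.16 (R 4.3.3) with 1 coefficient per group over 12 libraries. Nothing shows that the replicates are more than separate samples of 1 clone, so p-values measure the spread between these samples. A call needed a Benjamini-Hochberg adjusted p under 0.05 over all 18166 genes and a log2 change beyond 0.5. Transcript lengths are those of GENCODE 44 on GRCh38, and levels per kb divide CPM by them. Alternatives used DESeq2 1.42.0, limma 3.58.1, other scalings, filters and blocks, a length correction (lowess, span 0.3) and each library left out. All 9 genes are reported in each comparison, the 4 largest TE calls are named in each list, and the 5 nearest genes are given for ATAD5 and PCNA. The genes and lists were chosen with earlier results of these data known.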

Additional observations from a re-analysis of the deposited data

Results flagged for a closer look

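For 3 of the 9 genes the difference between the lines was not the same in the polysome and the total RNA, by the interaction test over all 12 libraries in edgeR. The difference of the log2 changes was -1.09 for RFC1 (adjusted p = 0.000822), -0.92 for ATAD5 (adjusted p = 0.0205) and -0.72 for RFC5 (adjusted p = 0.0143). The ATAD5 call was lost in 4 of 12 leave-outs and after the trend on length was taken out, when the value was -0.29 and the adjusted p 0.473 by edgeR. RFC1 stood out among them because its levels lay higher in shPRRC2B total RNA in all 3 replicates and lower in polysome RNA in all 3.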

How the results depend on the processing

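Of 1080 values of the 9 genes under 26 settings in 5 comparisons, 984 stayed on the same side of the call with the same sign. Correlations of same-numbered deviations ran from -0.217 to 0.167 over all pairs of groups. Between total and polysome RNA of the same line they ran from 0.0014 to 0.070. With 3 samples per group, these values cannot show whether the replicate numbers pair the samples. The polysome-to-total ratios given by replicate pair them by number. With the replicate number as a block, 3 genes were again called lower in TE (ATAD5 -0.90, adjusted p = 0.0299, edgeR), 4 in polysome RNA, and 4 rather than 5 were higher in shCtrl polysomes. With 1 library left out, the genes called lower in TE numbered 2 to 5, the most without shCtrl polysome replicate 1, and they numbered 5 without both polysome replicate 1 libraries. Leave-outs put RFC4 between -0.064 and 0.019 in total RNA and between -0.038 and 0.27 in polysomes, RFC2 in polysomes between -0.12 and 0.091, and RFC3 in the shCtrl ratio between -0.038 and 0.30. Without both polysome replicate 1 libraries, the polysome change was -0.11 for RFC2 and -0.039 for RFC4. With every gene of at least 1 count, RFC2 was at -0.0037 in polysomes and RFC3 at -0.033 in the shCtrl ratio.

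With library totals, the shCtrl ratio was -0.90 for RFC3, -0.50 for RFC5 and -0.30 for PCNA with 1 gene called higher, and the shPRRC2B ratio was -0.11 for DSCC1 and -0.43 for PCNA with 2 higher. With TMM within fractions these were -0.91, -0.50, -0.31, -0.11 and -0.43, with 1 and 2 genes higher and 5 lower in shCtrl. With the length trend removed, RFC4 was at -0.038 in TE, 0.014 in total RNA and -0.023 in polysomes, RFC2 at -0.11 in polysomes, and the shCtrl ratio was -0.30 for RFC3, -0.18 for RFC4, -0.067 for RFC5 and -0.82 for PCNA with 2 genes higher. The shPRRC2B ratio was -0.22 for RFC4 and -1.30 for PCNA with 0 genes higher. Adding the replicate block gave -0.018, 0.0096, -0.0083, -0.11, -0.30, -0.20, -0.071, -0.82, -0.22 and -1.30 in that order, with 2 and 0 genes higher and 2 lower in TE. Of all genes, 2981 were lower in TE, 1702 with the length trend removed and 1543 with the block added. The genes called higher in the ratios numbered 5906 in shCtrl and 6655 in shPRRC2B cells, 3211 and 4283 with library totals, and 3189 and 4296 with TMM within fractions. The causes were not tested beyond what each alternative changes. Depth limits ATAD5 most, at 45 to 152 polysome counts.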
